A study of Danio rerio with 8 samples.

Results

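The genes described here encode proteins of the spliceosome, serine/arginine-rich (SR) splicing factors and heterogeneous nuclear ribonucleoproteins (hnRNPs). They were chosen by gene symbol alone: a locus belonged to the set when it carried a single name that began like that of a small nuclear ribonucleoprotein (snRNP), SF3A, SF3B, U2AF, PRPF, LSm, SR, Tra2 or hnRNP gene, of 1 of a few splicing helicases, or of cdc5l, cwc, srrm or sf1. The rule found 103 of the 33843 loci in the authors' table, with 99 different symbols, and the rule uses no measured value, although the set was proposed with earlier results of these data known. Of these loci, 100 were among the 12757 that the authors tested. The other members, srrm4, hnrnpa3 and a second locus named prpf4, were not tested, and none of them exceeded 1.52 FPKM (fragments scaled to locus length and to the library's mapped fragments) in either condition.

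RNA-seq was made from whole zebrafish embryos at the dome stage, a blastula stage shortly after the zygotic genome is first transcribed. Treated embryos developed from the 2-cell stage in 20 µM SU5402, which blocks the kinases of the receptors for fibroblast growth factors (FGFs), and control embryos were given the same volume of its solvent dimethyl sulphoxide (DMSO) over the same time. Each condition had 2 RNA-seq samples, and all embryos were kept at 28 °C. The labels give no strain, number of embryos or clutch, and ATAC-seq samples of the same conditions were not analysed here. The authors' table holds 1 FPKM value per condition, pooled over both samples, so the values below carry no replicate error, and the p-values and q-values are the authors' own. They refer to the difference between conditions, judged against variation among samples that may be technical. In whole embryos, fewer cells of a type and less RNA per cell cannot be told apart.

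The spliceosome removes introns from transcripts. The U1 snRNP first marks the start of an intron, and SF1, U2AF and the U2 snRNP mark the branch point and the end. The preassembled U4/U6.U5 tri-snRNP then joins, helicases release U1 and U4, and the Prp19 complex helps to form the catalytic centre. SR proteins mostly favour the use of an exon and many hnRNPs oppose it, and both also act in transport, stability and translation of messages. In the early fish embryo most such messages are laid down in the egg, whereas many of the first genes to be transcribed have short introns or none.

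The embryos carried transcripts of the layers present at this stage. Of the markers looked up, deep-cell pou5f1, nanog and sox3 were at 56.5 to 1178 FPKM in SU5402 embryos and 68.2 to 1106 FPKM in controls. The enveloping layer genes krt4, krt8, krt18 and cldne spanned 20.4 to 141 FPKM in SU5402 embryos and 34.0 to 107 FPKM in controls. In the authors' deposited table, krt8, the yolk syncytial layer gene apoeb and the maternal genes zar1 and h1m were called higher and cldne lower. Of these calls only apoeb passed a Benjamini-Hochberg adjustment over all tested loci, described below, with an adjusted p of 0.00591. The adjusted p of krt8, zar1, h1m and cldne lay between 0.0717 and 0.196. The other yolk syncytial layer marker, mxtx2, had 94.5 FPKM in SU5402 embryos and 104 FPKM in controls and was not called. None of the markers named here was at 0, and their part in the results below was not tested. The FGF target dusp6 was at 2.13 FPKM in SU5402 embryos against 18.2 FPKM in controls.

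Across the whole set, the median change of splicing genes between SU5402 and control embryos was close to 0, and the share called was near that of all tested loci. Most of the few called genes belonged to the tri-snRNP and the U1 snRNP, a grouping that was not tested. The roles that group these genes were set with earlier results of these data known. By the authors' deposited table, 6 of the 100 tested members were higher and 2 were lower in SU5402 at a q of at most 0.05, the authors' threshold for a call. Over all tested loci 5.64% were called, 3.58% higher and 2.06% lower, so the 8 called members (8%) lay near the background. Among the 6 higher were snrnp27, prpf6, ddx23, sf3a2 and dhx16, and the 2 lower were snrpa and snrpc. The deposited log2 change (SU5402 over control) had a median of 0.02 and an interquartile range of -0.22 to 0.28 over the members, against a median of 0.04 and a range of -0.22 to 0.32 over 12714 tested loci with at least 1 FPKM in 1 condition and a finite change. It was above 0 in 53 members and below 0 in 47, while 54.3% of all those loci were above 0. A change beyond 0.5 in size was seen in 15 of the 100 members and in 25.6% of all those loci. These comparisons were not matched for level. At 50 FPKM or more, a cut chosen after the values were seen, the median log2 change was 0.0134 over members and 0.0999 over loci. Below 50 FPKM it was 0.0257 over members and 0.0316 over loci.

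The deposited q was smaller than an adjustment computed over this table. A Benjamini-Hochberg adjustment of the authors' p-values over all 12757 tested loci, here named the table-wide adjustment, kept snrnp27 as the only member higher and none lower, where 1.65% of all loci passed, 0.996% higher and 0.651% lower. At an unadjusted p under 0.05 in the authors' deposited table, 11 members were higher and 4 lower, with 7.03% and 4.08% of all tested loci.

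**Figure D1:**
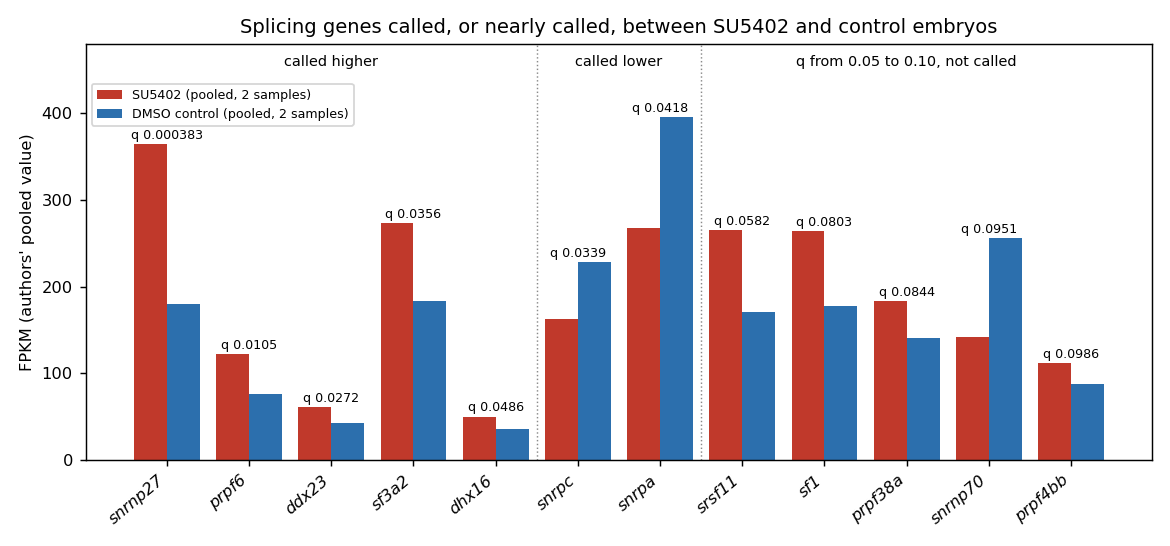
The bars give the authors' pooled FPKM of members they called and of those with a q between 0.05 and 0.10, with SU5402 left of control and the deposited q above each pair. The gene snrnp27 has the lowest q and the largest fold rise, while snrpa and snrpc are lower in SU5402.

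Splicing genes were abundant, which bears on how a count of calls is read. The median of the higher FPKM value was 99.4 over the members and 11.5 over all tested loci, and 68 members reached 50 FPKM, as did 16.7% of all tested loci with a finite change. All 8 calls fell on these 68 members, a share of 11.8%, and among all 2127 tested loci at 50 FPKM or more the authors called 12.7%. At 200 FPKM or more they called 4 of 27 members (14.8%) and 18.9% of 375 loci. Between 100 and 200 FPKM they called 2 of 23 members (8.70%) and 16.6% of 609 loci. The band from 50 to 100 FPKM went the other way, with 2 of 18 members (11.1%) and 8.57% of 1143 loci called. None of the 32 members below 50 FPKM was called, against 4.23% of 10630 loci. These bands of level were chosen after the values were seen. Of the 8 calls, dhx16 lay just above the 50 FPKM cut, at 50.1 FPKM in SU5402 embryos and 36.4 FPKM in controls.

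**Figure D2:**
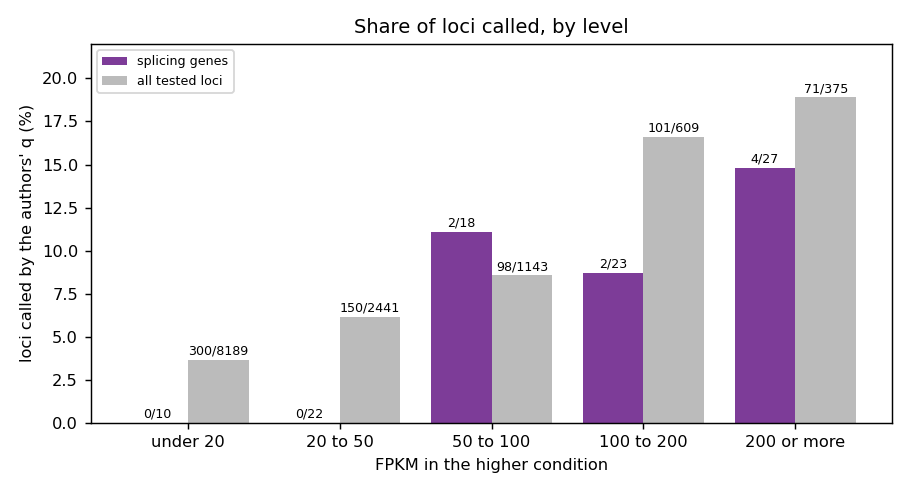
The bars give the percentage of loci called by the authors' q in bands of the higher FPKM value, for the splicing genes and for all tested loci, with the counts above each bar. The share of all loci called goes up with level, and above 100 FPKM the splicing genes lie below it.

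Recognition of the start of the intron is the work of the U1 snRNP, whose own proteins are U1-70K (snrnp70), U1-A (snrpa) and U1-C (snrpc). In the authors' deposited table snrpa had 268 FPKM in SU5402 embryos and 396 FPKM in controls, a log2 change of -0.56 (q = 0.0418). The level of snrpc was 163 FPKM in SU5402 embryos against 229 FPKM in controls, a log2 change of -0.49 (q = 0.0339). Both were thus lower in SU5402, by 1.48-fold and 1.40-fold, and neither passed the table-wide adjustment, with adjusted p of 0.237 and 0.207 from the authors' p.

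The third U1 protein gene, snrnp70, was also listed lower in SU5402 but not called (q = 0.0951), and its deposited values contradict each other. The authors' deposited table gives it 142 FPKM in SU5402 embryos and 256 FPKM in controls, a ratio whose log2 is -0.85, while the deposited log2 change is -0.44. It was the 1 locus of 12715 with a finite ratio where the columns differed by more than 0.001. With the control value as listed, the deposited change would need 189 FPKM in SU5402, and with the SU5402 value as listed it would need 193 FPKM in controls. Of 34 other loci between 0.5 and 2 times its level whose log2 change lay within 0.1 of -0.44, the authors called 5, and of 6 such loci within 0.1 of -0.85 they called 5. The deposited test statistic of snrnp70 was -3.79, larger in size than the 3.17 of snrnp27, while its p was 0.0340 and that of snrnp27 was 5e-05. Which column holds the measured value cannot be told from the table, and the sign is the same in both.

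The gene prpf39, whose product associates with U1 in alternative splicing, had 33.0 FPKM in SU5402 embryos and 38.9 FPKM in controls and was not called. In all, 2 of 5 tested U1 members were called lower and 1 higher, with 2.06% of all tested loci called lower and 3.58% higher. Of loci at 50 FPKM or more, 3.24% were called lower and 9.45% higher. The median log2 change of the U1 members was -0.44, which is the deposited value of snrnp70. It was -0.49 with the FPKM ratio of snrnp70 and -0.36 without that gene. On Zv9, snrpa lay at chromosome 18 from 33747015 to 33752102, snrpc at chromosome 6 from 54385571 to 54391060 and snrnp70 at chromosome 3 from 32061996 to 32070750.

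**Figure D3:**
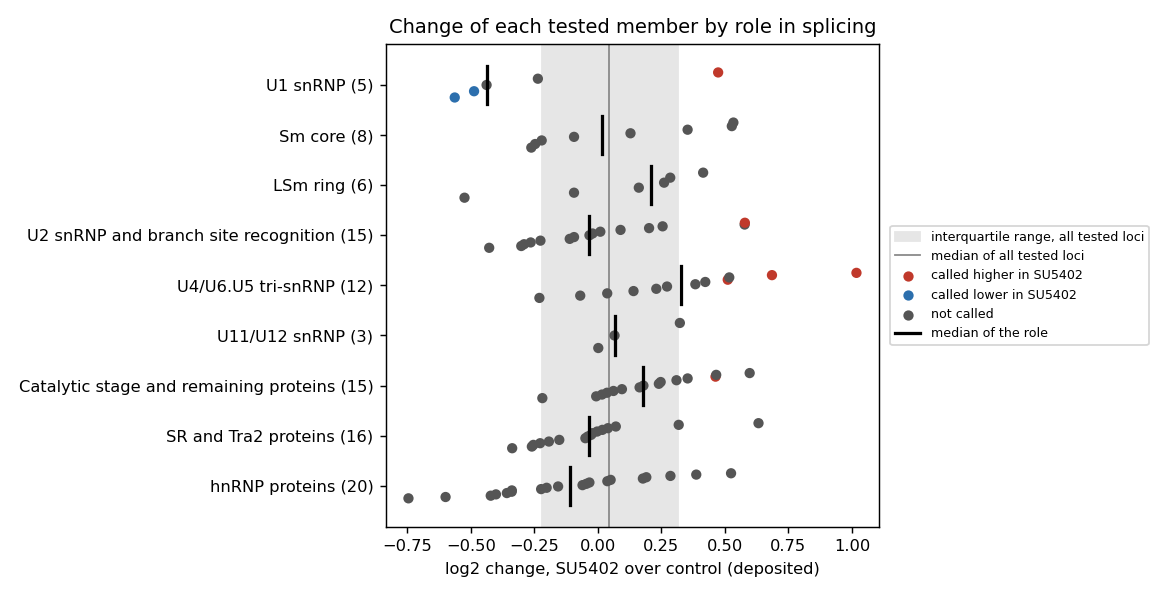
Each point is the deposited log2 change of a tested member (SU5402 over control), grouped by role with the number tested in parentheses, and coloured by the authors' call. The median of the U1 genes is -0.44, which is the deposited value of snrnp70. That of the tri-snRNP genes is 0.33, while SR genes sit around -0.03.

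Among the U2 snRNP and the factors that find the branch point, 1 of 15 tested members was called and the median log2 change was -0.03. The authors called 5.64% of all tested loci and 12.7% of those at 50 FPKM or more. The called gene was sf3a2, which encodes a subunit of SF3A needed for U2 to bind the branch region. Its level was 273 FPKM in SU5402 embryos and 183 FPKM in controls, a log2 change of 0.58 (q = 0.0356 in the authors' deposited table), with an adjusted p of 0.214 over the table. The branch point binding protein gene sf1 differed by as much, at 264 FPKM in SU5402 embryos and 177 FPKM in controls, but was not called (q = 0.0803). The other subunit gene of SF3A in the set, sf3a3, had 166 FPKM in SU5402 embryos and 139 FPKM in controls and was not called.

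Genes of SF3B, the complex that clamps the branch helix, were not called and leaned both ways. The most abundant, sf3b14 (the p14 subunit, now named sf3b6), had 687 FPKM in SU5402 embryos and 840.4 FPKM in controls. Levels of sf3b4 were 184 FPKM in SU5402 embryos and 227 FPKM in controls, and those of sf3b5 were 72.9 FPKM in SU5402 embryos and 98.1 FPKM in controls, the lowest log2 change of the U2 genes at -0.43. In contrast, the scaffold subunit gene sf3b1 had 66.3 FPKM in SU5402 embryos and 62.3 FPKM in controls, and sf3b2 had 106 FPKM in SU5402 embryos and 91.9 FPKM in controls. None of these changes passed the authors' threshold. The U2 particle's own protein genes snrpb2 (252 FPKM in SU5402, 272 in control) and snrpa1 (128 FPKM in SU5402, 136 in control) were not called either. U2AF reads the end of the intron, and its small subunit gene u2af1 had 122 FPKM in SU5402 embryos against 142 FPKM in controls, without a call.

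The tri-snRNP genes held the largest fold rise among tested members. The gene snrnp27, which encodes a small SR-like protein of the tri-snRNP, reached 365 FPKM in SU5402 embryos against 180.0 FPKM in controls, 2.03-fold higher with a log2 change of 1.02. In the authors' deposited table its p was 5e-05, the smallest in the table and shared by 108 loci, and its q was 0.000383. It was the only member to pass the table-wide adjustment, with a p of 0.00591. Its locus on Zv9, chromosome 5 from 14973668 to 14984692, was shared with no other row.

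Next came prpf6, a scaffold that bridges U5 with U4/U6, at 122 FPKM in SU5402 embryos and 76.0 FPKM in controls (log2 change 0.69, q = 0.0105 in the authors' deposited table). The helicase gene ddx23, whose human and yeast counterparts help U1 to be exchanged for U6, had 61.4 FPKM in SU5402 embryos and 43.1 FPKM in controls (log2 change 0.51, q = 0.0272 in the authors' deposited table). Both were called higher, and neither passed the table-wide adjustment, with adjusted p of 0.0923 and 0.182. On Zv9, prpf6 lay at chromosome 23 from 7111748 to 7119390 and ddx23 at chromosome 23 from 14305537 to 14328496.

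In all, 3 of 12 tested tri-snRNP members were called higher and none lower, where 3.58% of all tested loci and 9.45% of those at 50 FPKM or more were called higher. The log2 change was above 0 in 10 of the 12 loci, which count prpf3 at 2 loci, and the median was 0.33. Of all tested loci with at least 1 FPKM, 54.3% were above 0. Among the members that were not called, prpf38a had 184 FPKM in SU5402 embryos and 141 FPKM in controls (q = 0.0844 in the authors' deposited table), and prpf38b had 164 FPKM in SU5402 embryos and 115 FPKM in controls. Both are related to yeast Prp38, a protein needed to activate the spliceosome, and were placed in this group by symbol. Whether they are part of the fish tri-snRNP was not checked. Their log2 changes of 0.38 and 0.52 enter the count above 0 and the median, and their levels enter the sums below. The U4/U6 protein gene prpf4 had 38.6 FPKM in SU5402 embryos and 28.8 FPKM in controls, and its partner prpf3 was listed at 2 loci of chromosome 16, with 37.9 and 12.1 FPKM in SU5402 embryos and 32.3 and 10.05 FPKM in controls.

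The genes prpf8 and SNRNP200 of the large U5 core had changes closer to 0, but not all U5 genes did. Outside the rule, the U5 gene txnl4a was called lower (log2 change -0.615, q = 0.00550 in the authors' deposited table). The gene prpf8, whose product cradles the catalytic centre, had 66.8 FPKM in SU5402 embryos and 70.1 FPKM in controls, and SNRNP200, the helicase that unwinds U4 from U6, had 29.7 FPKM in SU5402 embryos and 29.0 FPKM in controls. The lowest log2 change among tri-snRNP genes, -0.23, belonged to prpf31, a U4 protein gene with 67.3 FPKM in SU5402 embryos and 78.9 FPKM in controls. None of prpf8, SNRNP200 and prpf31 was called. Summed over the 12 loci, tri-snRNP genes had 1213 FPKM in SU5402 embryos and 862 FPKM in controls, a ratio of 1.41. Without snrnp27 the sums were 848 FPKM in SU5402 embryos and 682 FPKM in controls, a ratio of 1.24. The 5 U1 loci summed to 737 FPKM in SU5402 embryos and 1014 FPKM in controls, and without snrnp70 to 595 FPKM in SU5402 embryos and 758 FPKM in controls.

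Genes acting at the catalytic stage, with the remaining helicases and kinases of the set, had a median log2 change of 0.18. Of the 15 tested, 13 were above 0, as were 54.3% of all tested loci with at least 1 FPKM. Of the same 15, 1 was called, with 5.64% of all tested loci called. The 1 call was dhx16, which encodes the counterpart of yeast Prp2, the helicase that readies the spliceosome for the first reaction. It had 50.1 FPKM in SU5402 embryos and 36.4 FPKM in controls, a log2 change of 0.46 (q = 0.0486 in the authors' deposited table), and an adjusted p of 0.265 over the table. Its locus on Zv9 was chromosome 15 from 34193695 to 34229815. The helicase genes that act later, dhx8 (69.6 FPKM in SU5402, 66.7 in control) and dhx38 (36.9 FPKM in SU5402, 36.0 in control), were not called.

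The Prp19 complex gene cdc5l had 127 FPKM in SU5402 embryos and 103 FPKM in controls. The coactivator genes srrm1 and srrm2, whose products are rich in serine and arginine, had 146 and 101 FPKM in SU5402 embryos against 124 and 73.0 FPKM in controls. The kinase gene prpf4bb had 112 FPKM in SU5402 embryos and 87.4 FPKM in controls, with a q of 0.0986 in the authors' deposited table. None of these was called. The genes of the UAP56 helicase family, which link splicing to export, differed from each other: ddx39ab had 313 FPKM in SU5402 embryos and 365 FPKM in controls, ddx39aa 202 FPKM in SU5402 embryos and 203 FPKM in controls, and ddx39b, the lowest of them, 10.8 FPKM in SU5402 embryos and 7.15 FPKM in controls. The last had the largest log2 change of this role, 0.60, at a q of 0.159 in the authors' deposited table, and shares its region with another row.

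**Figure D4:**
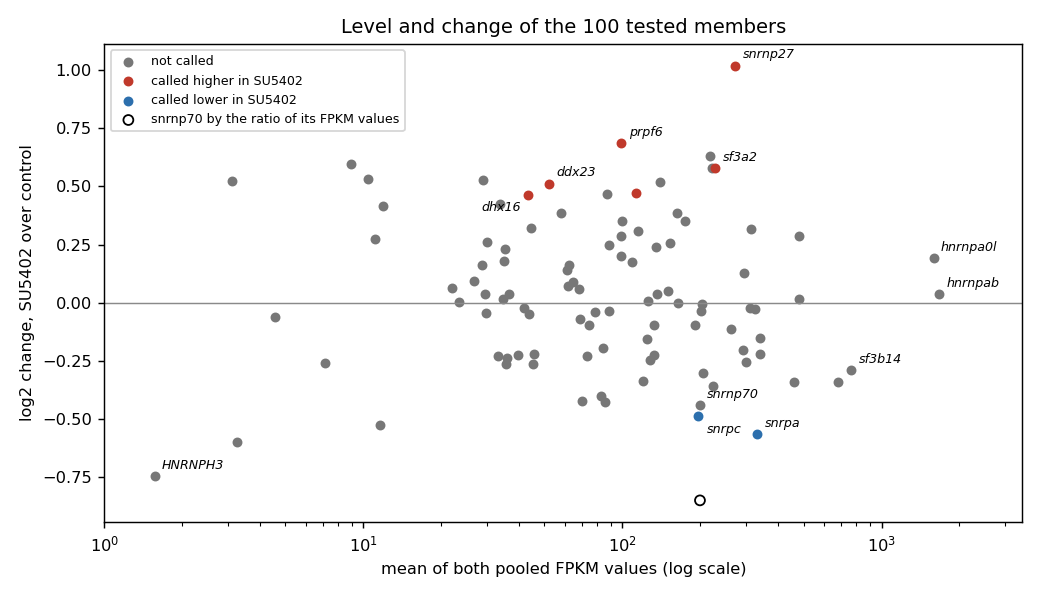
Each point is a tested member, placed by the mean of its pooled FPKM values on a log scale and by its deposited log2 change (SU5402 over control), with the called ones coloured. The gene snrnp27 stands highest at 1.02, the most abundant genes hnrnpab and hnrnpa0l lie near 0, and the open circle shows snrnp70 at -0.85 by the ratio of its FPKM values.

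The Sm proteins form the ring carried by most spliceosomal snRNPs. With 5.64% of all tested loci called, none of 8 tested Sm genes was called. Their median log2 change was 0.02, or -0.094 without SNRPG, the only one that shares a region with other rows. The most abundant was snrpd3 (308 FPKM in SU5402, 282 in control), and next were snrpd1 (184 FPKM in SU5402, 196 in control) and snrpd3l (196 FPKM in SU5402, 153 in control), whose order differs between the conditions. The ends of the range were SNRPG at 0.53 (12.4 FPKM in SU5402, 8.55 in control), whose region holds 3 rows, and snrpd2 at -0.26 (32.4 FPKM in SU5402, 38.8 in control). Subunits of 1 ring thus differed in sign without passing the authors' threshold.

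The LSm proteins form the ring of U6, except that a ring with LSm1 in place of LSm8 acts in mRNA decay in the cytoplasm. With 5.64% of all tested loci called, none of 6 tested LSm genes was called. Their median was 0.21, and it was -0.18 over lsm6 and lsm8 alone, the only LSm genes that share a region with no other row. The most abundant, lsm4, had 108 FPKM in SU5402 embryos and 89.0 FPKM in controls, LSM5 had 72.1 FPKM in SU5402 embryos and 76.9 FPKM in controls, and lsm7 had 32.6 FPKM in SU5402 embryos and 27.2 FPKM in controls. The gene of the U6-specific subunit, lsm8, had 30.3 FPKM in SU5402 embryos and 27.1 FPKM in controls, and the decay-specific lsm1 had 13.7 FPKM in SU5402 embryos and 10.2 FPKM in controls. Of the 6, lsm6 had the lowest log2 change, -0.53, at 9.50 FPKM in SU5402 embryos and 13.7 FPKM in controls (q = 0.425 in the authors' deposited table).

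The U11/U12 snRNP recognises the rare introns of the minor class. Its 3 members in the set were all tested and not called, with 5.64% of all tested loci called. SNRNP25 had 49.3 FPKM in SU5402 embryos and 39.4 FPKM in controls. The gene snrnp35 had 22.6 FPKM in SU5402 embryos and 21.6 FPKM in controls, and snrnp48 had 23.3 FPKM in both.

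SR proteins and the related Tra2 proteins bind exonic enhancers and recruit U1 and U2AF, and most of their log2 changes lay near 0. None of 16 tested was called, with 5.64% of all tested loci and 12.7% of those at 50 FPKM or more called. The median log2 change of the 16 was -0.03, and their summed FPKM was 3028 in SU5402 embryos and 3002 in controls. The most abundant was srsf1a with 484 FPKM in SU5402 embryos and 478 FPKM in controls. Next were SRSF7 (322 FPKM in SU5402, 328 in control), srsf2a (322 FPKM in SU5402, 358 in control) and srsf4 (349 FPKM in SU5402, 280 in control). The Tra2 genes tra2a and tra2b had 138 and 78.8 FPKM in SU5402 embryos against 134 and 90.0 FPKM in controls.

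The largest log2 change of an SR gene, 0.63, was that of srsf11, with 265 FPKM in SU5402 embryos and 171 FPKM in controls (q = 0.0582 in the authors' deposited table, not called). Its assembled region on Zv9, chromosome 11 from 45704914 to 46264009, holds 23 rows of the table, so reads may be split among neighbours. The lowest, -0.34, was that of srsf3a, with 106 FPKM in SU5402 embryos and 133 FPKM in controls (q = 0.189 in the authors' deposited table). Between these ends, 13 of 16 SR and Tra2 genes lay within 0.3 of 0 on the log2 scale.

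None of 20 tested hnRNP loci was called. The authors called 5.64% of all tested loci and 12.7% of those at 50 FPKM or more. Of all tested loci with at least 1 FPKM 54.3% were above 0. The 20 hnRNP loci count hnrnpa0l and hnrnph1 at 2 rows each. Both rows of hnrnph1 lie in 1 region, at under 5 FPKM, with log2 changes of -0.06 and -0.60. Of the 20 hnRNP loci 13 were below 0 and 7 above, with a median log2 change of -0.11. Their summed FPKM, 6242 in SU5402 embryos and 6292 in controls, was the highest of the roles, while their median FPKM, 117 in both, lay below that of the SR and Tra2 genes at 151 in SU5402 embryos and 149 in controls. The leading genes, hnrnpab with 1690.1 FPKM in SU5402 embryos and 1647 in controls and the chromosome 14 copy of hnrnpa0l with 1695 FPKM in SU5402 embryos and 1485 in controls, were the 2 members above 1000 FPKM. In mammals the product of hnrnpab binds AU-rich messages.

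Several abundant hnRNP genes leaned lower in SU5402 without a call. They were hnrnpa0b (598 FPKM in SU5402, 756 in control), hnrnpa1, the archetypal exon-silencing hnRNP gene (405 FPKM in SU5402, 513 in control), and hnrnpl2, of the family that binds CA-rich RNA (195 FPKM in SU5402, 250.3 in control). The authors' deposited q was 0.231 for hnrnpa0b, 0.279 for hnrnpa1 and 0.112 for hnrnpl2. Others were higher or close to equal, also without a call: hnrnpub, whose product binds scaffold-attached chromatin and RNA, had 529 FPKM in SU5402 embryos and 434 FPKM in controls, and hnrnpk, which binds C-rich RNA, had 199 FPKM in SU5402 embryos and 204 FPKM in controls. The region of hnrnpr, which had 65.8 FPKM in SU5402 embryos and 50.3 FPKM in controls, holds 17 rows. The extremes of log2 change among tested genes of the role were at low level: HNRNPH3 at -0.75 (1.17 FPKM in SU5402, 1.96 in control) and the chromosome 20 copy of hnrnpa0l at 0.52 (3.66 FPKM in SU5402, 2.55 in control).

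Zebrafish keep duplicate copies of many of these genes, and in each of 10 pairs except srsf3a and srsf3b the copies differed more from each other than either did between conditions. In these pairs, the log2 changes of both copies differed by 0.04 to 0.34, with a median of 0.21, and had the same sign in 7 pairs. In contrast, copies differed in control level by up to 46-fold, as for srsf2a (322 FPKM in SU5402, 358 in control) and srsf2b (6.49 FPKM in SU5402, 7.78 in control). The pair srsf1a and srsf1b differed 10.8-fold in controls, and hnrnpa0a and hnrnpa0b 9.47-fold, whereas srsf3a and srsf3b differed 1.23-fold and u2af2a and u2af2b 1.39-fold.

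The widest gap in response was that of the kinase pair: prpf4bb had a log2 change of 0.35 and prpf4ba, with 34.9 FPKM in SU5402 embryos and 34.5 FPKM in controls, of 0.02. Near it were srsf3a at -0.34 and srsf3b at -0.0031 (163 FPKM in SU5402, 164 in control), and srsf6a at -0.25 (273 FPKM in SU5402, 325 in control) and srsf6b at 0.07 (63.3 FPKM in SU5402, 60.3 in control). No member of a pair was called, and these gaps carry no test. Reads of near-identical copies may be counted to either copy, so the split within a pair is uncertain.

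**Figure D5:**
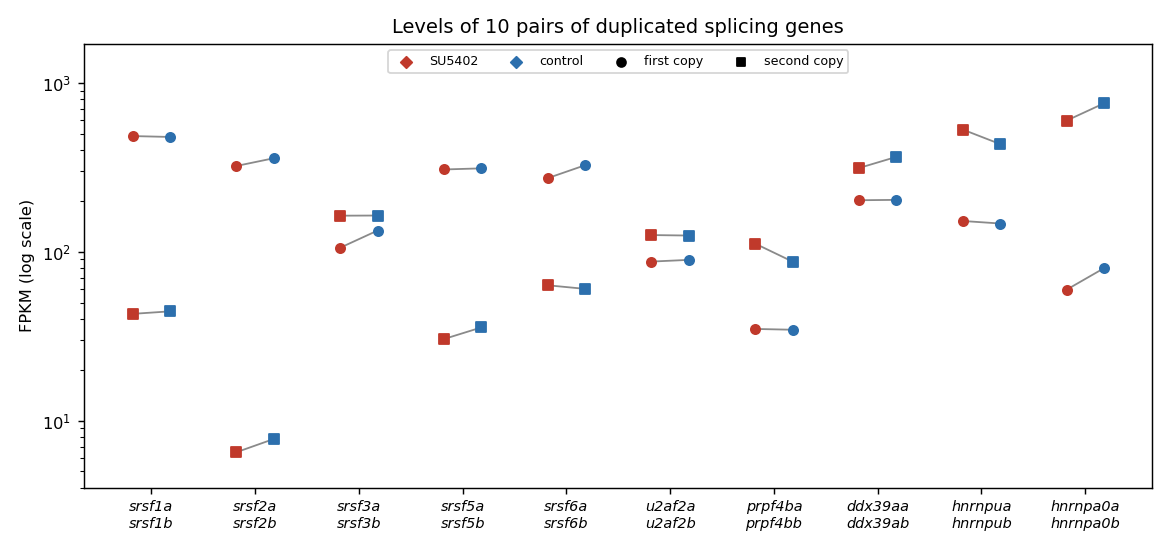
Pooled FPKM on a log scale for 10 pairs of duplicated genes, SU5402 left and control right, with circles for the copy named first and squares for the copy named second. The gap between copies in controls is widest for srsf2a and srsf2b, at 46-fold, and narrowest for srsf3a and srsf3b, at 1.23-fold.

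The members lay on 24 numbered chromosomes, with 1 locus on an unplaced scaffold and at most 9 on a chromosome (chromosome 19). Members near each other could differ in sign. The tandem genes hnrnpa0b and hnrnpa0l are 1.33 kb apart on chromosome 14 and had log2 changes of -0.34 and 0.19. The genes snrpa and hnrnpul1, 395 kb apart on chromosome 18, differed in size but not in sign, at -0.56 and -0.05. Of the tested members, 17.0% shared an assembled region with another row, as did 27.1% of all tested loci.

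Outside the rule, 5 lists of other splicing genes gave 147 tested loci, and the authors' deposited table called 10 higher and 2 lower (8.16%), again with 5.64% of all tested loci called. Their median log2 change was 0.12, and 95 were above 0 and 52 below, where 54.3% of all tested loci with at least 1 FPKM were above 0. Of these calls, sfpq, safb and phax passed the table-wide adjustment, all 3 higher. The RNA-binding factor gene sfpq, a paraspeckle protein, had 286 FPKM in SU5402 embryos and 151 FPKM in controls (q = 0.000383 in the authors' deposited table), and safb, which binds nuclear scaffold DNA and RNA, had 204 FPKM in SU5402 embryos and 120 FPKM in controls (q = 0.000719 in the authors' deposited table). In the same list of 40 tested RNA-binding regulators, ptbp1a, a repressor of exon inclusion, was lower at 12.2 FPKM in SU5402 embryos and 19.7 FPKM in controls (q = 0.0108 in the authors' deposited table).

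In the list of 61 other core proteins of the spliceosome, the median of the higher FPKM value was 59.4. Of all tested loci 3.58% were called higher and 2.06% lower, and of those at 50 FPKM or more 9.45% and 3.24%. Among the 61 core proteins 5 were called higher and 1 lower, with a median log2 change of 0.15. The higher ones included sart1, whose product holds the tri-snRNP together, at 126 FPKM in SU5402 embryos and 76.2 FPKM in controls (q = 0.0200 in the authors' deposited table), and zmat5, a U11/U12 protein gene, at 62.5 FPKM in SU5402 embryos and 29.7 FPKM in controls (q = 0.0101 in the authors' deposited table). The others were gpatch1 (23.3 FPKM in SU5402, 10.4 in control), zmat2 (161 FPKM in SU5402, 114 in control) and mfap1 (99.7 FPKM in SU5402, 72.5 in control). The 1 lower was txnl4a, which encodes a small U5 protein, with 150.0 FPKM in SU5402 embryos and 230 FPKM in controls (q = 0.00550 in the authors' deposited table). None of these 6 passed the table-wide adjustment, with adjusted p between 0.0577 and 0.252.

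Of 20 tested genes for snRNP assembly and import, the authors' deposited table called 2 higher and none lower, with a median log2 change of 0.10. They were phax, the export adaptor of newly made snRNAs, at 31.5 FPKM in SU5402 embryos and 18.3 FPKM in controls (q = 0.00437), and smn1, which loads Sm rings onto snRNAs, at 22.6 FPKM in SU5402 embryos and 13.4 FPKM in controls (q = 0.0319). For comparison with these 2 calls and the next, 3.58% of all tested loci were called higher. Among 17 tested export and exon junction genes casc3 was called higher, with 113 FPKM in SU5402 embryos and 80.5 FPKM in controls, and the median was 0.04. None of 9 tested kinases that phosphorylate splicing factors was called, among them srpk1a with 70.3 FPKM in SU5402 embryos and 62.4 FPKM in controls, and their median was 0.09.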

How the data were processed

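The 1 table of 33843 loci, made by the authors to compare their RNA-seq groups, was used. The submitters' processing notes name TopHat2, Picard, Cufflinks, Cuffdiff and the Zv9 (danRer7) build, with no version, order or strand setting. Per the file headers, the deposited FPKM is 1 value per condition, the deposited log2 fold change is SU5402 over control, and the deposited p-value and q-value belong to that comparison. The deposited score (test statistic) was read only for snrnp70 and snrnp27. FPKM is relative to each condition's library, so a change in total RNA would be hidden. The depth of the samples is unknown, and no interval for counting error can be had.

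A symbol rule chose the members, and roles, lists and duplicate pairs were assigned by symbol. Members, roles and lists were chosen with earlier results of these data known. Of the 99 symbols, 96 are names in at least 1 reference table, and 98 are names or synonyms of 1 gene. The current symbols found for SRSF7, hnrnpab and hnrnpa1 are srsf7b, hnrnpaba and hnrnpa1b. Medians use tested loci with at least 1 FPKM in the higher condition. The table-wide adjustment is a Benjamini-Hochberg adjustment over 12757 tested loci, tested on simulated data. At the largest called p of 0.0151 it gives 0.268. Starts were raised by 1, since 9 were 0 in the file. Named genes were every called member except 1 that is counted but not reported here, each role's most abundant and most changed members, those with q up to 0.10, duplicates, untested members and called genes of the lists. Members named outside that rule (the U2, tri-snRNP, catalytic stage and hnRNP genes given as contrasts) were chosen after their values were seen. Python 3.11.15, pandas 2.3.3 and numpy 2.4.6 were used. No sequences are shown and the planned description of proteins was not made. Replicates could not be tested against each other, as both are pooled in the table.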

Additional observations from a re-analysis of the deposited data

How the results depend on the processing

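With the table-wide adjustment, members called higher numbered 1 in place of 6 (snrnp27) and members called lower 0 in place of 2. Neither count moved by more than 1.5 times with a minimum of 5 FPKM, without members that share a region, or with loci of joined names added. The median log2 change of all members lay between -0.03 and 0.03 over 10 settings, which covered pseudocounts of 0.1 and 1 FPKM, minimums of 5 and 20 FPKM or none, centring on all tested loci and the handling of snrnp70, the last added after the data were seen. Of 74 recomputed role medians, 71 stayed within 0.1. The Sm median was -0.094 at a minimum of 20 FPKM and -0.094 without shared regions. The LSm median was -0.18 without shared regions, which leaves only lsm6 and lsm8. Centring on the median of all tested loci (0.04) turned the sign of 8 uncalled genes that lay near 0: hnrnpab (-0.0062), srsf1a (-0.026), snrnp48 (-0.042), tra2a (-0.0040), u2af2b (-0.034), prpf4ba (-0.028), dhx38 (-0.0075) and SNRNP200 (-0.0068). No called member changed sign. A pseudocount of 1 FPKM moved 3 genes under 5 FPKM by more than 0.1, HNRNPH3 to -0.45 among them. No paired analysis was possible because the table gives 1 pooled value per condition, and replicates could not be left out for the same reason.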

Other observations

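Loci with several joined names lay outside the rule, and 2 of them hold a splicing gene. The locus of SEC24A and ddx46, which encodes a helicase that helps U2 to bind, had 91.0 FPKM in SU5402 embryos and 67.8 FPKM in controls (q = 0.0548 in the authors' deposited table, not called). The locus of pold2 and sf3a1, a subunit gene of SF3A, had 75.4 FPKM in SU5402 embryos and 87.0 FPKM in controls and was not called. Reads of both genes in such a locus are counted together.

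Some genes of the tri-snRNP or of spliceosome activation outside the symbol rule were looked up after the values of the others had been seen. The U5 helper GTPase gene eftud2 had 58.6 FPKM in SU5402 embryos and 66.7 FPKM in controls, usp39 had 32.7 FPKM in SU5402 embryos and 31.9 FPKM in controls, and ppih had 112 FPKM in SU5402 embryos and 124 FPKM in controls. The genes smu1 (111 FPKM in SU5402, 90.1 in control) and ik (62.2 FPKM in SU5402, 51.5 in control) encode partners that activate the spliceosome. None of the 5 was called in the authors' deposited table, where 5.64% of all tested loci were called. These 5 are not all such genes outside the rule. As given above, the tri-snRNP gene sart1 was called higher (q = 0.0200) and the U5 gene txnl4a lower (q = 0.00550).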
